A study of Mus musculus with 6 samples.

Results

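Ebi3 is the gene described here, 1 of 31053 genes counted in each of 3 single-cell gene-expression libraries made from sorted mouse bone marrow. It was chosen because its level separated these libraries, so the levels below describe that choice and carry no test. Each library came from marrow pooled from 2 C57BL/6 mice: wild type at 12 weeks (the young wild type), wild type at 100 weeks (the aged wild type), and nfkbie-/-nfkbib-/-nfkbia+/- at 12 weeks (the IkB-deficient library). Cells in all 3 had been sorted as B220+IgM-IgD- and negative for the T cell markers CD3e and CD8a, the myeloid markers CD11b, Gr-1 and F4/80, and the NK marker CD49b, a gate that the series' design text equates with Hardy fractions A to D, and each library had a V(D)J library from the same cells. The labels name no Cre or promoter for these alleles and do not separate the 2 mice of a pool.

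Ebi3, named after Epstein-Barr virus-induced gene, encodes a secreted protein shaped like a soluble cytokine receptor. It is a beta subunit of cytokine dimers: paired with the product of Il27 it forms interleukin-27, which is read by Il27ra and Il6st, and paired with the product of Il12a it forms interleukin-35. Both are known as regulators of T cell responses, and interleukin-35 is also known as a product of regulatory B cells. Nfkbia, Nfkbib and Nfkbie encode IkB alpha, beta and epsilon, which hold dimers of Rel, Rela and Nfkb1 products in the cytoplasm until a signal degrades them. B cell progenitors rearrange the heavy chain first, divide when it pairs with the surrogate light chain made by Igll1 and Vpreb1, and then rearrange a light chain at rest.

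Ebi3 (ENSMUSG00000003206) lies on the plus strand of chromosome 17, from 55952623 to 55957022 in GRCm38.p6. The 250 bases before its RefSeq start, chr17:55952373-55952622, are shown because they hold a match to the binding consensus of NF-kB dimers, the factors that the deleted inhibitors restrain. Capitals mark that match, 44 to 35 bases before the start. The consensus searched was GGGNNNNNCC with a purine at the fourth base and pyrimidines at the seventh and the eighth, on both strands.
Ebi3: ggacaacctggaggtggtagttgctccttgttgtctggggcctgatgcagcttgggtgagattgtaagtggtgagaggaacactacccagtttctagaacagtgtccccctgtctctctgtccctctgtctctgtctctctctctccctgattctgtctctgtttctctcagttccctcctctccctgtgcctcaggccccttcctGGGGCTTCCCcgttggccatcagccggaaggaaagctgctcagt
The Ebi3 match reads as the consensus on both strands and is the only match in its window. Of 32851 RefSeq promoter windows of 250 bases, 2382 (7.25%) held such a match, while the bare letters GGGNNNNNCC were in 45.8%. A match is a run of letters, and no file here measured binding.

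The V(D)J kit reads transcripts from their 5′ end. Retained cells numbered 7357 to 8825 a library with median depths of 3806 to 6419 UMIs (unique molecular identifiers, each counting 1 captured transcript), the IkB-deficient library being the deepest. Shares of Ebi3-positive cells were therefore read after thinning each cell to 2000 UMIs, and levels are UMIs per 1000000 (CPM), with the genes of the immunoglobulin and T cell receptor loci left out of the total. There was 1 library a group, so no test between groups was possible. All 95% intervals (exact Poisson for levels, Clopper-Pearson for shares, conditional binomial for ratios) cover counting error only. They leave out differences between mice and between library preparations and, for levels and ratios, the uneven spread of UMIs between cells. Pairs of libraries shared 85 to 108 cell barcodes. Stages were built from Cd79a, a chain of the B cell receptor complex, from productive IGH contigs in the V(D)J library, and from S and G2/M phase genes. A resting cell had under 3 UMIs of those 32 genes at 2000 UMIs, and cells carrying markers of another cell type, or Fcer2a or Fcmr, were classed apart.

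The resting cells without a productive IGH contig, where Ebi3 was highest among the main stages, numbered 901 in the young wild type, 1356 in the aged wild type and 2586 in the IkB-deficient library. They carried the markers of B cell progenitors in every library: Igll1 was in 90.3% to 96.2% of them, Ebf1 in 99.0% to 99.7% and Dntt, which adds bases at heavy-chain joins, in 81.6% to 86.7%. Cd3e was at 0 UMIs in all 3, which allows up to 0.747 CPM in the young, 0.484 in the aged and 0.199 in the IkB-deficient library (3 counts). Siglech, which marks plasmacytoid dendritic cells, stood at 1.66 to 2.74 CPM. These cells are therefore called resting progenitors below.

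Readings of the targeted genes in the resting progenitors followed the labels for Nfkbie, at 173 CPM in the young wild type, 159 CPM in the aged wild type and 1.92 CPM in the IkB-deficient library (0.0111 times the young level, 0.00739 to 0.0161). Nfkbib was at 41.1, 43.6 and 24.1 CPM in the same order (0.586 times the young level, 0.486 to 0.709). Nfkbia, of which 1 allele remained, was at 263, 260 and 332 CPM (1.26 times, 1.18 to 1.35). Which part of each gene was deleted is not given in the sources used here, so reads from outside the deletion check nothing. Nfkbie lies 10.39 Mb from Ebi3 on chromosome 17, and whether the Ebi3 copy beside the deleted allele differs from the wild-type one cannot be told from these counts.

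The pools also differed in sex. Cells with Xist UMIs and no Y-linked UMI made up 90.9% of the IkB-deficient library, 24.0% of the aged library and 0 of 8786 cells of the young library, which allows a share of up to 0.0341%. Y-linked UMIs without Xist were in 63.2%, 43.1% and 0.0113% of the young, aged and IkB-deficient cells. Genotype and sex therefore cannot be told apart between the IkB-deficient and the young library. The aged library offers the only comparison within 1 preparation: in its resting progenitors Ebi3 was at 2.70 CPM in the Xist cells (0.556 to 7.88, 3 UMIs in 237 cells) and 3.53 CPM in the Y-linked cells (1.83 to 6.17, 12 UMIs in 709 cells). Those intervals overlap, and no difference was detectable at this depth.

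Over all retained cells, Ebi3 counted 117 UMIs in the young wild type, 214 in the aged wild type and 11792 in the IkB-deficient library. That is 2.42, 4.69 and 173 CPM. The share of cells with an Ebi3 UMI was 1.18%, 2.52% and 36.3% as sequenced, and 0.362%, 0.687% and 21.0% at 2000 UMIs. The IkB-deficient library thus stood far above both wild types (71.6 times the young level, 59.7 to 86.7), and the aged library somewhat above the young one (1.94 times, 1.54 to 2.45).

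In the IkB-deficient library most Ebi3 UMIs lay in resting progenitors. In these cells Ebi3 counted 20 UMIs in the young wild type (4.98 CPM, 3.04 to 7.69), 21 in the aged wild type (3.39 CPM, 2.10 to 5.18) and 7260 in the IkB-deficient library (481 CPM, 470 to 493). The IkB-deficient level was 96.7 times the young one (62.5 to 158). At 2000 UMIs, Ebi3 was in 0.555% of young resting progenitors (0.180% to 1.29%), 0.664% of aged ones (0.304% to 1.26%) and 41.9% of IkB-deficient ones (40.0% to 43.8%). The young and aged intervals overlapped (0.681 times, 0.351 to 1.32), although setting other cell types aside at 1 marker gave an aged level of 0.295 times the young one (0.0918 to 0.831), and the IkB-deficient value lay far outside both.

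Among the 6023 genes with a mean of at least 20 CPM over the 3 libraries in these cells, Ebi3 had the second-highest log2 ratio of IkB-deficient over young wild type, 5.61 with 5 CPM added to each level. Of those genes, 2.71% were at least 2-fold higher and 3.44% at least 2-fold lower. Ebi3 passed the minimum only through the IkB-deficient library and was chosen on this contrast, so its rank describes the choice.

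Ebi3 was present in every B-lineage stage of the IkB-deficient library, and its order over the stages was resting progenitors, resting cells with IGH, cycling cells without IGH, cycling cells with IGH. Resting cells with a productive IGH contig held 3 UMIs in the young wild type (0.272 CPM, 0.0560 to 0.794), 12 in the aged wild type (2.16 CPM, 1.12 to 3.78) and 474 in the IkB-deficient library (275 CPM, 251 to 301). Cycling cells without IGH held 11, 7 and 1342 UMIs, which is 1.96, 0.697 and 48.1 CPM (45.6 to 50.8 for the last). Cycling cells with IGH held 1, 1 and 45 UMIs, which is 0.0528, 0.0805 and 16.9 CPM (12.3 to 22.6 for the last). The 4 IkB-deficient intervals do not overlap, so neighbours in that order differed by more than counting error, with spread between cells left out. The IkB-deficient over young ratio was 24.6 in cycling cells without IGH (13.7 to 49.3) and 1013 in resting cells with IGH, where 3 young UMIs leave an interval of 345 to 4931.

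**Figure D1:**
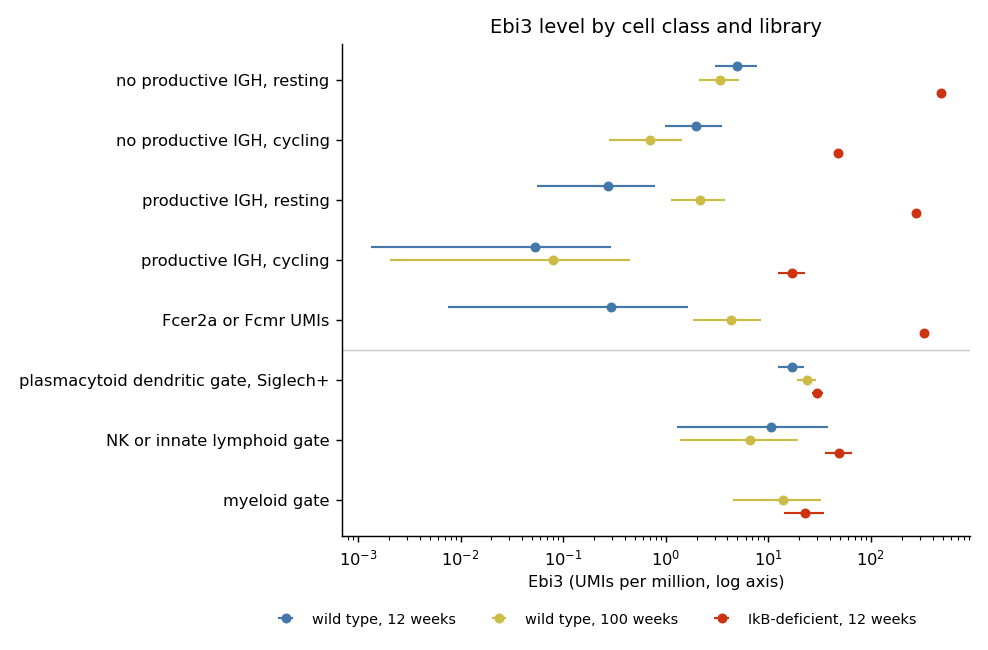
Ebi3 level in CPM (log axis) by cell class for the young wild-type, aged wild-type and IkB-deficient library, with points for the level and bars for its 95% exact Poisson interval, and classes of few cells left out. IkB-deficient points lie above the wild-type points in each B-lineage class, from 16.9 CPM in cycling cells with IGH to 481 CPM in resting progenitors, and lie near them in Siglech-positive dendritic cells and in the few myeloid cells.

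In CPM, resting cells without IGH stood above cycling ones in each library. Without IGH the resting over cycling ratio was 10.0 in the IkB-deficient library (9.44 to 10.6), 2.54 in the young wild type (1.16 to 5.88, on 20 and 11 UMIs) and 4.87 in the aged wild type (1.99 to 13.6, on 21 and 7 UMIs). With IGH the IkB-deficient ratio was 16.3 (12.0 to 22.7). The aged ratio was 26.9 (3.98 to 1148, on 12 and 1 UMIs) and the young one 5.14 (0.413 to 270, on 3 and 1 UMIs). Cycling cells were deeper, and in UMIs per cell the difference without IGH was smaller. Resting and cycling cells without IGH held 2.81 and 0.590 Ebi3 UMIs a cell in the IkB-deficient library. The young ones held 0.0222 and 0.0205, and the aged ones 0.0155 and 0.00820. The positive share fell only at higher cell-cycle readings. Over all B-lineage stages of the IkB-deficient library Ebi3 was in 37.3% of cells at 0 UMIs of the cycling genes and 40.2% at 1 to 2. It was in 18.5% at 3 to 9 and 3.04% at 10 or more. S phase genes and G2/M phase genes, read separately, also gave lower levels at the high end. Ebi3 was at 395 CPM at 0 S phase UMIs against 25.8 CPM at 6 or more, and 416 CPM at 0 G2/M UMIs against 20.2 CPM at 6 or more. Cells low in cycling genes and cells high in them had been thinned to the same depth for these shares.

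A productive heavy chain went with a lower level among resting cells of the IkB-deficient library, where cells without IGH stood 1.75 times above those with it (1.59 to 1.92). The young wild type gave 18.3 (5.44 to 96.4, on 20 and 3 UMIs) and the aged wild type 1.57 (0.737 to 3.50, on 21 and 12 UMIs). Resting progenitors without an IGH contig and those with IGH contigs not called productive did not differ beyond counting error in the IkB-deficient library. The 120 with no IGH contig at all read 508 CPM, and the 2466 with such contigs read 480 CPM (1.06 times, 0.942 to 1.19). The second group was not limited to failed rearrangements. In the aged wild type that ratio was 3.64 (1.40 to 9.56), on 11 and 10 UMIs.

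Light-chain contigs went with a higher level in resting progenitors of the IkB-deficient library. IkB-deficient resting progenitors with any light contig read 491 CPM (2468 cells) and those without read 313 CPM (118 cells), a ratio of 1.57 (1.38 to 1.78). Most of those contigs had no V gene: 590 cells had a light contig with a V gene, at 602 CPM, against 451 CPM in the rest. In 272 cells the light contig was productive, and they read 648 CPM. Resting cells with IGH had the other order. They read 209 CPM with a light contig that had a V gene (71 UMIs in 14 cells). Without one they read 292 CPM (1.40 times, 1.08 to 1.83). That order rested on the V gene, since those with a productive light contig (38 cells) read 277 CPM and those without read 275 CPM. In the young wild type the 259 resting progenitors with a light contig held 2 Ebi3 UMIs and the 642 without held 18, too few to place either order. Light contigs were thus in a larger part of the IkB-deficient resting progenitors than of the young ones. The IkB-deficient over young ratio was 54.3 without a light contig (33.7 to 93.1) and 220 with one (60.8 to 1815).

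Igll1 gave a steep gradient. In IkB-deficient resting progenitors Ebi3 was in 10.9% of cells at 0 Igll1 UMIs, 21.1% at 1 to 4, 40.2% at 5 to 14 and 53.9% at 15 or more, all at 2000 UMIs a cell. The corresponding levels were 43.5, 263, 448 and 617 CPM over 119, 218, 1372 and 877 cells. Resting cells with IGH showed the same order and a wider span, from 1.76% of 227 cells at 0 Igll1 UMIs through 20.8% of 48 and 48.9% of 90 to 66.7% of 27 at 15 or more. At a matched Igll1 reading of 5 to 14 UMIs, Ebi3 was at 448 CPM without IGH and 488 CPM with it. In the bin of 0 Igll1 UMIs, which held 227 of 392 cells with IGH and 119 of 2586 without, Ebi3 was at 12.4 CPM with IGH (5.66 to 23.5) and 43.5 CPM without (26.9 to 66.5). Cycling cells without IGH were low throughout and reached 27.5% only at 15 or more Igll1 UMIs.

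Dntt, which is turned down once the heavy chain is rearranged, separated Ebi3-positive cells more by presence than by amount. Over the B-lineage stages of the IkB-deficient library Ebi3 was in 13.3% of cells at 0 Dntt UMIs, 27.0% at 1 to 2, 31.3% at 3 to 5 and 34.4% at 6 or more, or 96.6, 205, 245 and 287 CPM. Within resting progenitors the shares were 28.1%, 47.0%, 46.3% and 45.5%, so the bins above 0 lay close together. Resting cells with IGH gave 7.90% of 291 cells at 0 Dntt UMIs, and 53.7% of 54, 52.8% of 36 and 45.5% of 11 in the following bins. Over the pooled stages the wild types had the same low end on few UMIs: the young B-lineage stages read 0.0999 CPM at 0 Dntt UMIs (3 Ebi3 UMIs) and 5.44 CPM at 6 or more (15 UMIs), and the aged ones 0.462 CPM (9 UMIs) and 2.73 CPM (12 UMIs). Within aged resting progenitors no low end was seen, at 2.72, 3.85, 4.30 and 2.58 CPM over the same bins (2, 4, 9 and 6 UMIs). Young resting progenitors held 1 UMI at 0 Dntt UMIs (1.60 CPM, 0.0404 to 8.89).

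Cell by cell, Ebi3 was spread unevenly. Of the 2586 IkB-deficient resting progenitors, 989 (38.2%) had no Ebi3 UMI as sequenced, 446 (17.3%) had 1, 575 (22.2%) had 2 to 4, 391 (15.1%) had 5 to 9 and 185 (7.15%) had 10 or more. The highest cell had 41. The 10% of cells with the most held 44.8% of the UMIs. With a mean of 2.81, equal cells under Poisson counting would be positive in 94.0% of cases, against 61.8% observed.

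The spread was still there at 1 depth. At 2000 UMIs a cell the mean was 0.946, the variance 2.64 times the mean and the highest cell 14. Poisson counting at that mean would give 61.2% positive cells against 41.9% observed. The intervals given for levels and ratios of these cells are thus narrower than ones that include the spread between cells. Ebi3-positive resting progenitors had a median of 5705 UMIs and Ebi3-negative ones 5468. In wild-type B-lineage stages no cell had more than 2 Ebi3 UMIs, so the wild-type levels rest on scattered cells with 1 or 2 transcripts.

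**Figure D2:**
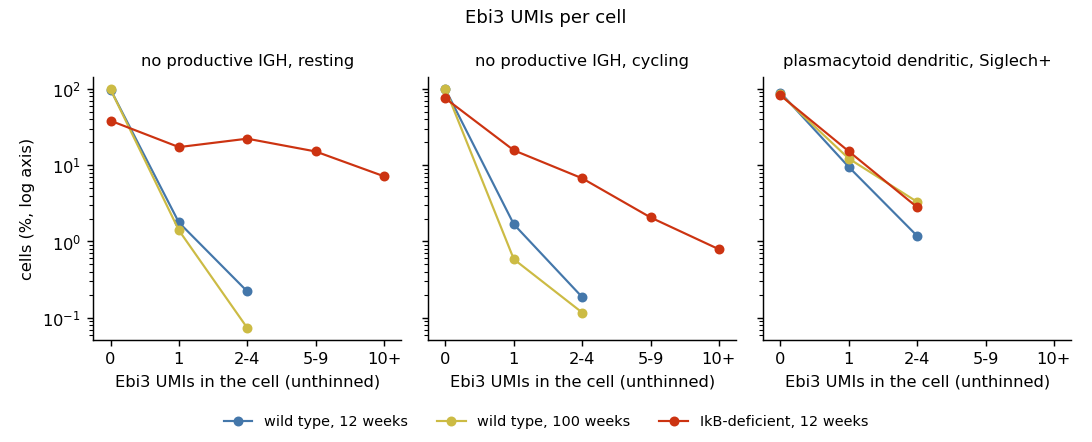
Percent of cells (log axis) with 0, 1, 2 to 4, 5 to 9 and 10 or more Ebi3 UMIs as sequenced, in 3 cell classes of each library, with bins that hold no cell left blank. IkB-deficient resting progenitors extend to the bin of 10 or more UMIs (7.15% of cells), where the wild-type classes have no cell.

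Of the 11792 Ebi3 UMIs of the IkB-deficient library, 61.6% came from resting progenitors, which were 29.3% of its cells. Cycling cells without IGH gave 11.4% of the UMIs from 25.8% of the cells. Cells with Fcer2a or Fcmr, both of which mark later B cells, gave 14.4% from 12.4%.

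The Fcer2a or Fcmr class held 1017 young, 543 aged and 1093 IkB-deficient cells, with 1, 8 and 1695 Ebi3 UMIs (0.296, 4.30 and 331 CPM). In the IkB-deficient library this class was rich in progenitor genes. Igll1 stood at 141, 414 and 2774 CPM, while Cr2, a complement receptor of mature B cells, was at 0.592, 1.08 and 1.37 CPM. Splitting the IkB-deficient class by Igll1 gave 428 CPM of Ebi3 in 696 cells with an Igll1 UMI and 84.6 CPM in 397 cells without (5.06 times, 4.21 to 6.13). Ebi3 in these cells was thus higher where Igll1 was read, as in the resting stages.

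Wild-type Ebi3 was mostly outside the B-lineage stages, which held 35 of 117 young and 41 of 214 aged UMIs. All cells with a Cd79a UMI, including those with markers of other types, held 61 and 65. Plasmacytoid dendritic cells, which carry B220 and so pass the sort, are type I interferon producers. The cells with at least 2 of their 9 markers held 46.2% of the young Ebi3 UMIs in 5.88% of the cells, and 54.7% of the aged UMIs in 8.51% of the cells. Because Cd300c and Bst2 of that list were also read in B-lineage cells (Cd300c at 1.25, 2.91 and 97.9 CPM in young, aged and IkB-deficient resting progenitors), levels are given for the cells with Siglech. Those 423 young, 484 aged and 1280 IkB-deficient cells held 50, 91 and 268 Ebi3 UMIs, or 16.9 CPM (12.5 to 22.2), 23.8 CPM (19.1 to 29.2) and 30.1 CPM (26.6 to 34.0). The young and aged intervals overlap (1.41 times, 0.987 to 2.03), and the IkB-deficient level was 1.79 times the young one (1.32 to 2.47).

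The order of cell types was therefore different in the wild types and in the IkB-deficient library. Siglech-positive dendritic cells stood 3.39 times above resting progenitors in the young wild type (1.98 to 6.01) and 7.01 times above them in the aged wild type (4.32 to 11.9). In the IkB-deficient library resting progenitors stood 16.0 times above the dendritic cells (14.1 to 18.1). Per cell, the dendritic cells were even: at 2000 UMIs 5.31% of the IkB-deficient ones were positive where Poisson counting gives 5.25%, and none had more than 3 Ebi3 UMIs as sequenced.

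Free RNA from broken cells can leave UMIs in droplets that do not express a gene, and 1 such source keeps its genes in 1 ratio. For every 100 UMIs of Igll1, all retained cells held 0.218, 0.279 and 5.55 Ebi3 UMIs in the young, aged and IkB-deficient library. Siglech-positive dendritic cells held 64.1, 95.8 and 63.4. The dendritic ratio was above that of all cells in each library, with 63.4 against 5.55 in the IkB-deficient one. NK or innate lymphoid cells of the IkB-deficient library held 11.1 Ebi3 UMIs for every 100 of Igll1 (48 Ebi3 UMIs in 149 cells), nearer to the ratio of all cells. Those 48 UMIs lay in 14 of the 149 cells, and Igll1 stood at 441 CPM in the class. Its Ebi3 level was 49.0 CPM against 10.7 and 6.69 CPM in the young and aged NK or innate cells, which rest on 2 and 3 UMIs. Free RNA itself was not measured, and its part in the levels of these cell types was not tested.

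Markers of other cell types in young, aged and IkB-deficient resting progenitors differed by list. The T cell list of 6 genes summed to 0.747, 0.646 and 1.26 CPM and the myeloid progenitor list of 5 genes to 0.747, 1.45 and 3.32 CPM. The plasmacytoid dendritic list of 9 genes summed to 115, 132 and 198 CPM with 7, 6 and 6 members above 0, Klk1b27 and Cd209d being at 0 in all 3 libraries and Siglech at the few CPM given above. The monocyte or macrophage list of 5 genes summed to 93.4, 85.4 and 33.0 CPM, nearly all of it Lyz2 (92.9, 84.4 and 32.4 CPM), with C1qa at 0 in all 3. The NK or innate list of 10 genes summed to 57.5, 48.1 and 49.3 CPM, with Ncr1 at 0 in all 3, and the plasma cell list of 5 genes to 16.7, 17.8 and 11.5 CPM. The plasmacytoid dendritic sum was thus highest in the library with most Ebi3. That excess lay in Cd300c, whose levels are given above, and without Cd300c the sum was lowest in that library. The part of dendritic cells in the Ebi3 level was not tested.

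The 2 wild types were compared stage by stage on few UMIs. Resting progenitors gave the aged over young ratio of 0.681 above and cycling cells without IGH 0.356 (0.117 to 1.01). Resting cells with IGH gave 7.96 (2.15 to 44.0), on 12 aged and 3 young UMIs, and the Fcer2a or Fcmr class 14.5 (1.95 to 645), on 8 and 1. Of these 4 ratios the intervals of the last 2 lay above 1. Over the whole plasmacytoid dendritic gate the ratio was 1.47 (1.052 to 2.06), and cells with neither Cd79a nor markers of a type held 6 young and 24 aged Ebi3 UMIs. What part each class had in the aged excess over all cells was not tested. Among all aged cells Ebi3 was at 7.25 CPM in the Xist cells (5.80 to 8.94) and 3.27 CPM in the Y-linked cells, while among Siglech-positive dendritic cells both read 22.5 CPM.

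Of the 2 partner chains of the Ebi3 protein, that of interleukin-35 was expressed in resting progenitors and that of interleukin-27 was nearly absent from the counts. Il12a, the p35 chain, was at 164 CPM in young, 162 CPM in aged and 427 CPM in IkB-deficient resting progenitors (2.60 times the young level, 2.40 to 2.82). It was thus already present in both wild types, at nearly the same level. Cycling cells without IGH read 92.8, 68.8 and 157 CPM (1.69 times, 1.54 to 1.85), and Siglech-positive dendritic cells 57.3, 86.2 and 42.9 CPM, so the IkB-deficient library was the lowest of the 3 in dendritic cells. Il27, the p28 chain, had 0, 1 and 1 UMIs in resting progenitors of the young, aged and IkB-deficient library. Il12b, Il23a and Il6, which encode other chains of this cytokine family, had 0 UMIs in all 3, with the same limits as Cd3e.

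Clcf1, a ligand of the ciliary neurotrophic factor receptor, was lower in the IkB-deficient library, at 40.8, 24.9 and 16.0 CPM (0.393 times the young level, 0.321 to 0.482). Cntf had 1 UMI, in the IkB-deficient library. Over the partner and kin list, 5 of 8 genes were detected and 2 (Il12a and Clcf1) reached the minimum, 1 of them at least 2-fold higher and 1 at least 2-fold lower, beside the 2.71% and 3.44% of all genes given above.

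Ebi3 and Il12a transcripts met in the same cells. Among 5507 IkB-deficient B-lineage cells as sequenced, 4423 had Il12a, which was in 1989 of the 2295 Ebi3-positive cells (86.7%) and in 75.8% of the Ebi3-negative cells. Il27 was in 3 cells, 1 of which had Ebi3. The correlation of Ebi3 with Il12a across Cd79a-positive cells at 2000 UMIs was 0.179, and 0.113 within resting progenitors, where Il12a was in 59.1% of Ebi3-positive and 52.0% of Ebi3-negative cells. These cells share 1 library, and the values are a description.

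The receptor chains for interleukin-27 and interleukin-35 were low in all 3 libraries. Il27ra stood at 16.9, 12.3 and 31.2 CPM in young, aged and IkB-deficient resting progenitors (1.84 times the young level, 1.43 to 2.41). Il6st, the shared chain gp130, stood at 9.71, 10.0 and 11.8 CPM (1.22 times, 0.855 to 1.77), which is within counting error. Il12rb1, a chain of the interleukin-12 and interleukin-23 receptors, stood at 5.23, 5.49 and 11.5 CPM (2.21 times, 1.40 to 3.66). Il12rb2 had 2, 0 and 3 UMIs, and Il6ra was at 2.99, 1.94 and 4.11 CPM (1.38 times, 0.734 to 2.81). Il23r had no UMI. Of the 6 receptor genes 1, Il27ra, reached the minimum, and it was not past 2-fold. Il27ra was in 20.4% of Ebi3-positive and 13.7% of Ebi3-negative B-lineage cells, and Il6st in 6.93% and 6.16%.

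**Figure D3:**
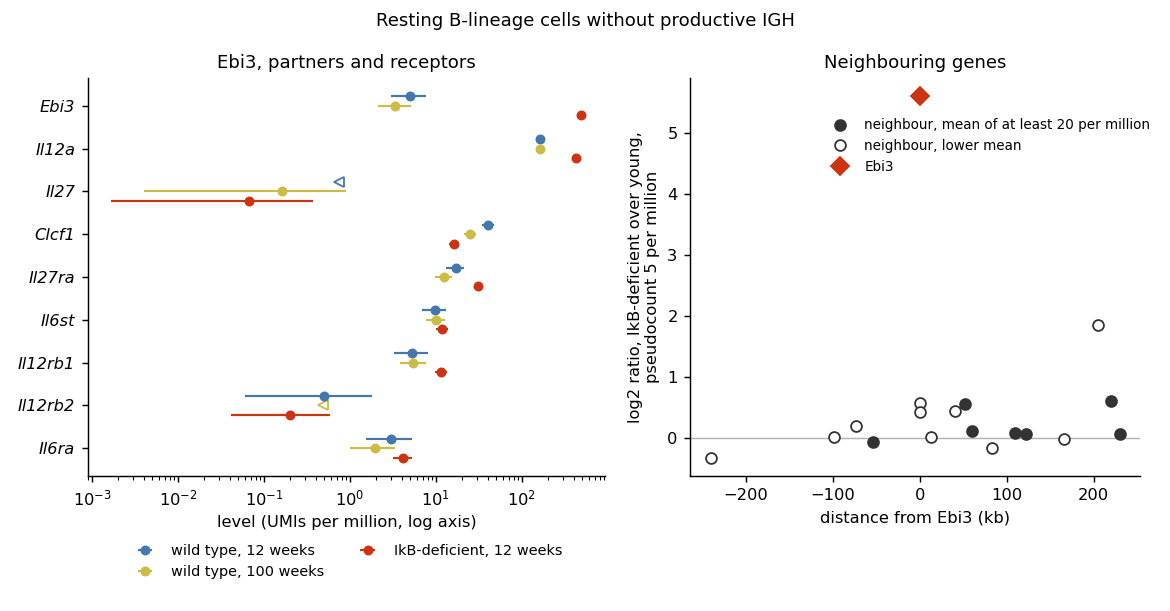
Left, level in CPM (log axis) of Ebi3, its partner and kin genes and its receptor genes in resting progenitors of the 3 libraries with 95% exact Poisson intervals, open triangles at the level of 3 counts marking genes with 0 UMIs. Right, log2 ratio of IkB-deficient over young wild type for genes within 250 kb of Ebi3, by distance in kb, where Ebi3 at 5.61 stands above all of them (filled points reached the 20 CPM minimum, open points did not).

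Genes that carry the signal of these receptors showed no common shift past 2-fold. Of 8 kinases, STAT factors and SOCS genes, 6 reached the minimum, 4 had a log2 ratio above 0 and none was past 2-fold either way. Their median was 0.31, against -0.06 over all 6023 genes. Stat3, a transducer of gp130 receptors, was at 81.7, 92.7 and 115 CPM in young, aged and IkB-deficient resting progenitors (1.40 times, 1.25 to 1.58). The kinase Jak1 was lower at 157, 168 and 117 CPM (0.742 times, 0.677 to 0.814), as was Stat4 at 104, 106 and 60.6 CPM (0.582 times, 0.518 to 0.655).

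Many known NF-kB subunits and targets were higher in the same cells. Of 18 listed genes 16 reached the minimum in resting progenitors. Nfkb2, Relb, Bcl3, Birc3, Cd40, Ltb, Icam1 and Ccr7 (8 genes) were at least 2-fold higher in the IkB-deficient library, against 2.71% of all genes, and the deleted Nfkbie was the only one at least 2-fold lower. Their median log2 ratio was 0.91 against -0.06 over all genes. Genes that reached the minimum only through the IkB-deficient library had to differ, so this count describes the list and does not weigh it. Aged over young gave none higher, 1 lower (Rela) and a median of -0.07, beside 0.515% of all genes at least 2-fold higher and 0.216% lower.

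Of the 4 most abundant members, Ltb, a membrane-bound lymphotoxin chain, was at 270, 204 and 1407 CPM in young, aged and IkB-deficient resting progenitors (5.21 times, 4.90 to 5.55). Birc3, an inhibitor of cell death, was at 76.9, 74.6 and 381 CPM (4.95 times, 4.41 to 5.57). Nfkbia and Nfkbie are given above. Chosen after their values were seen, Cd40, a receptor for T cell help, was at 14.2, 19.2 and 236 CPM (16.6 times, 12.8 to 22.0), Bcl3 at 6.47, 6.62 and 70.6 CPM (10.9 times, 7.40 to 16.8) and Nfkb2 at 37.8, 37.9 and 241 CPM (6.37 times, 5.41 to 7.54). All 3 lay below the Ebi3 ratio of 96.7.

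The list was also read in the other classes. In cycling cells without IGH 4 of 12 members that reached the minimum were at least 2-fold higher and 2 at least 2-fold lower, beside 1.18% and 1.66% of 5670 genes. In Siglech-positive dendritic cells 5 of 14 were at least 2-fold higher and 2 at least 2-fold lower, beside 1.19% and 1.85% of 5897 genes, and Ebi3 had a log2 ratio of 0.68 there. Those are the cells in which Ebi3 was 1.79 times the young level.

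Measured genes around Ebi3 differed little between libraries. RefSeq lists 28 genes within 250 kb, of which 21 were in the matrices. Of those 21, 17 were detected and 7 reached the minimum in resting progenitors. Of these 7 none was past 2-fold, 6 had a log2 ratio above 0 and the median was 0.09. Ubxn6, an adaptor of the p97 segregase, was at 77.7, 78.8 and 83.0 CPM, Hdgfl2, a chromatin reader, at 55.5, 55.5 and 58.4 CPM, Sh3gl1, an endophilin, at 55.0, 53.0 and 59.8 CPM, and Mydgf, a secreted growth factor, at 42.1, 48.8 and 66.6 CPM (1.58 times, 1.34 to 1.87). One gene below the minimum, chosen after its values were seen, differed more: Tnfaip8l1, 205 kb away, was at 1.74, 1.78 and 19.6 CPM (11.2 times, 5.38 to 28.2).

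Ebi3 is overlapped on the minus strand by Zfp119b, a zinc-finger gene, and by the noncoding gene Gm16712. Whether the counting used strand is not given in the sources used here, and without strand their reads cannot be told from those of Ebi3. Zfp119b held 31, 61 and 210 UMIs in young, aged and IkB-deficient resting progenitors (7.72, 9.85 and 13.9 CPM) and Gm16712 held 5, 13 and 51 (1.25, 2.10 and 3.38 CPM). Both counts are small beside the 7260 Ebi3 UMIs of the IkB-deficient library. In the wild types Zfp119b held more UMIs than Ebi3 with its 20 and 21, and Gm16712 fewer.

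Some genes were read more often, and others less often, in cells with Ebi3. Across 6936 Cd79a-positive cells of the IkB-deficient library, 1731 (25.0%) had Ebi3 at 2000 UMIs, and Pearson's r of log(1 + UMIs) was taken against 5118 genes. These cells share 1 library and 1 depth, and r is given as a description. The highest values belonged to Tmem176b, a membrane protein of antigen-presenting cells (0.363), Cd37, a B cell tetraspanin (0.358), the surrogate light chain gene Vpreb1 (0.346), the lymphocyte GTPase gene Gimap6 (0.336) and Igll1 (0.327). Ppp1r21 (0.321), Sh3bp5 (0.310), B2m, the light chain of MHC class I (0.303), Vpreb3 (0.301), Cyba, a subunit of the phagocyte oxidase (0.300), Bid, a cell-death activator (0.296), Birc3 (0.293), Rapgef1 (0.290), Mzb1 (0.289) and Ltb (0.284) followed. The median over all genes was 0.0004, and 37 genes had r above 0.2.

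The lowest values belonged to Hmgb1 (-0.337), H2afz (-0.326), Hmgn2 (-0.317), Stmn1 (-0.308), Ptma (-0.284), Ppia (-0.280), Hmgb2 (-0.266) and Pclaf (-0.257). Hmgb1, H2afz, Hmgn2 and Hmgb2 encode chromatin proteins and Stmn1 a tubulin-binding protein. None of 30 detected S and G2/M genes had r above 0. Cycling cells also held little Ebi3 in the stages above.

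Within the 2586 resting progenitors, where cycling no longer separates cells, 12 of the 15 highest genes were again among the highest 15 and 3 of the 8 lowest again among the lowest 8. Correlations were weaker, with a maximum of 0.266 for Bid and Tmem176b. Tmem176b was in 70.8% of Ebi3-positive and 46.6% of Ebi3-negative resting progenitors, Bid in 42.7% and 21.9%, Rapgef1 in 44.7% and 26.0%, and Birc3 in 56.5% and 38.6%. Gimap6 was in 89.8% and 74.5%, Sh3bp5 in 60.0% and 40.1%, and Ppp1r21 in 63.1% and 45.1%. Of the low group, Hmgn2 was in 30.7% and 44.0% and Stmn1 in 11.9% and 18.6%, while Hmgb2 was in 48.9% and 46.6%. The lowest value in these cells was that of Cd24a, a surface protein of B cell progenitors (-0.252). Within cycling cells without IGH 11 of the 15 and 7 of the 8 were shared, and within the Fcer2a or Fcmr class 9 of the 15 and none of the 8.

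**Figure D4:**
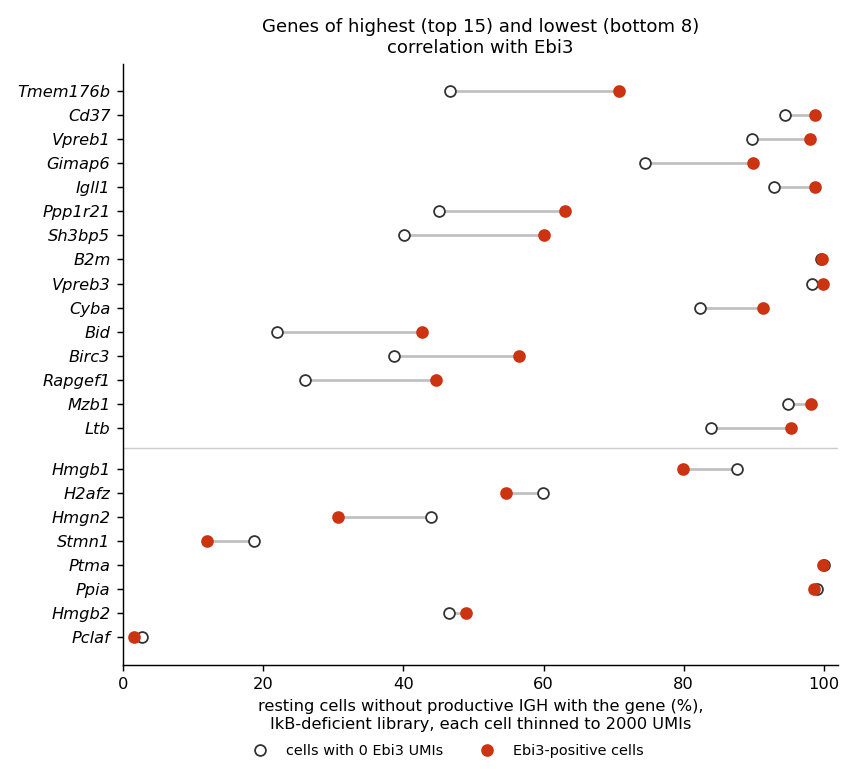
Percent of IkB-deficient resting progenitors with each gene at 2000 UMIs a cell, among Ebi3-positive and Ebi3-negative cells, for the 15 genes of highest and the 8 of lowest correlation with Ebi3 over all Cd79a-positive cells. Tmem176b stands at 70.8% against 46.6%, and Hmgn2 at 30.7% against 44.0%.

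Members of the NF-kB list differed widely in how they went with Ebi3 from cell to cell. Over all Cd79a-positive cells Birc3, Ltb and Cd40 (r 0.270) ranked 12, 15 and 18 of 5118 genes, while Nfkb1 was at -0.017. Over all Cd79a-positive cells 10 of 13 detected members had r above 0, with a median of 0.101, and within resting progenitors 11 of 14 had, with a median of 0.058. Within cycling cells without IGH 11 of 11 had, with a median of 0.127, and within the Fcer2a or Fcmr class 9 of 15 had, with a median of 0.034. Over all genes 47.4% to 50.5% had r above 0 in these sets of cells. MHC class II genes, chosen after their values were seen, went the other way within resting progenitors, with r of -0.142 for H2-Aa, -0.135 for H2-Ab1 and -0.133 for H2-Eb1.

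The genes that went with Ebi3 from cell to cell covered a range of ratios between the libraries. Some differed little between IkB-deficient and young resting progenitors: Igll1 was at 5647, 5412 and 6171 CPM in young, aged and IkB-deficient cells (1.09 times) and Vpreb1 at 4710, 4247 and 4595 CPM (0.976 times). Others differed widely: Rapgef1, an exchange factor for Rap proteins, was at 10.2, 11.6 and 240 CPM (23.5 times), Ppp1r21 at 35.1, 44.7 and 476 CPM (13.6 times), Bid at 48.8, 43.9 and 264 CPM (5.40 times) and Cyba at 288, 291 and 1199 CPM (4.17 times). Tmem176b lay between, at 220, 278 and 622 CPM (2.83 times). So did Gimap6 (1.65 times), B2m (1.63 times), Cd37 (1.44 times), Sh3bp5 (1.38 times) and Mzb1 (1.16 times). Vpreb3 was lower in the IkB-deficient library (0.758 times), and Birc3 and Ltb are given above.

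Over 25 sums of stage by library, each of at least 50 cells, the profiles of log2(CPM + 5) most like that of Ebi3 among 5968 genes were those of Gdpd3, a phospholipase D-like enzyme (r 0.969), Ppp1r21 (0.965), Wnt10b, a secreted Wnt ligand (0.961), Rapgef1 (0.942), Inf2 (0.922), Il9r, the interleukin-9 receptor (0.921), Chka (0.914), Tmem222 (0.910), Bid (0.909) and Sdhaf1 (0.904). The sums share 3 libraries, so any gene that differs mainly between libraries ranks high. Ebi3 ranged from 15.3 to 491 CPM over the IkB-deficient sums and reached at most 9.04 CPM in a wild-type sum. Gdpd3 ranged from 43.9 to 261 CPM against at most 3.23 CPM, and Wnt10b from 12.8 to 193 CPM against at most 4.30 CPM. Ppp1r21, Rapgef1 and Bid (3 genes) were in both lists.

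The promoter windows of these genes can be set beside that of Ebi3. Of the 15 genes of highest cell-to-cell correlation, 14 had a window and 4 held the consensus, against 8.23% of 27025 genes. Those 4 are shown because they are the genes that shared with Ebi3 both a place among the 15 and the match. Capitals mark the match, and each is written along its own gene's strand.
Tmem176b, chr6:48841387-48841416, minus strand: ggcccctttaGGGGTTTTCCagcaggcagc
Sh3bp5, chr14:31417704-31417733, minus strand: cacagtgacaGGAGGTTCCCacaattcagg
B2m, chr2:122147551-122147580, plus strand: actgaaaatgGGAAAGTCCCtttgtaacct
Ltb, chr17:35194410-35194439, plus strand: aagggtgttcGGAAAGTCCCcgggcagggg
In Tmem176b the match lay 32 to 23 bases before the start, in Sh3bp5 46 to 37, in B2m 126 to 117 and in Ltb 87 to 78, and in the last 3 the consensus reads on the other strand. Of the 8 genes of lowest correlation, 6 had a window and 1, Hmgb2, held the consensus. Among the 10 genes of similar profile 2 did, Wnt10b and Inf2, and of the NF-kB list 6 of 13 with a window did (Nfkb2, Rel, Nfkbia, Nfkbie, Ltb and Tnfaip3). Rapgef1, Ppp1r21, Bid and Gdpd3 had no match in theirs, which says only that these letters are absent from 250 bases.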

How the data were processed

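Single-cell 5′ gene-expression and V(D)J libraries were made from 3 sorted marrow pools (6 libraries). The authors deposited filtered matrices of raw UMI counts per gene and cell and tables of V(D)J contigs. Cell Ranger and mm10 are named per the submitters' processing notes, and the matrices carry software version 3.0.1 per the file headers. Use of strand and treatment of doublets are not given in the sources used here.

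The cell filter asked for 500 or more UMIs, 300 or more genes and no more than 10% mitochondrial UMIs. Scrublet's own threshold marked 1, 231 and 333 doublets in the young, aged and IkB-deficient library, so its highest scores were removed at 0.8% per 1000 cells instead (723, 493 and 731). Cells were thinned to 2000 UMIs for shares, markers and correlations, which leaves out 499, 664 and 174 shallower cells. Other cell types were set aside at 2 or more distinct markers. Stages joined matrices and contigs by barcode. Ratios used a pseudocount of 5 CPM on the log2 scale and a minimum mean of 20 CPM for counts of genes past 2-fold, and Cd79a of at least 1 UMI for B-lineage cells. Genes correlated with Ebi3 were detected in at least 5% of cells. Simulated data with known folds gave the right sign for all 50 genes at each of 4 fold sizes. They were Poisson counts of genes with a mean of at least 20 CPM, without spread between cells, mice or libraries. They therefore check the computation under counting error only.

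Named genes are Ebi3, the targeted genes, detected partners and receptors, the 4 most abundant members of the other lists, the 15 highest and 8 lowest correlations and the 10 closest profiles. A few of these are not reported here. The gene and these lists were chosen with earlier results of these data known. The Siglech gate and the V gene requirement for light contigs were chosen after seeing the data. Other alternatives varied the cell filter, doublets, thinning, seed, CPM total, marker, cycling and contig rules, Dntt bins and correlation settings. Promoter windows come from RefSeq, GRCm38.p6. Python 3.11.15, numpy 2.4.6, scipy 1.17.1, pandas 2.3.3 and scanpy 1.11.5 were used.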

Additional observations from a re-analysis of the deposited data

How the results depend on the processing

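In all, 109 values were recomputed: 80 stayed within their counting interval or 1.5 times the main count, 29 moved and none reversed. The 96.7-fold ratio in resting progenitors held within its interval under all 12 alternatives run on it, between 80.0 and 123. Those alternatives did not match the libraries for light contigs. The ratio was 54.3 in cells without a light contig (33.7 to 93.1, on 251 and 18 UMIs). With one it was 220 (60.8 to 1815, on 7009 and 2 UMIs). The IkB-deficient level in resting progenitors was 499.7 CPM with another random seed, 629 CPM without mitochondrial and ribosomal genes, 426 CPM with other types set aside at 1 marker, 444 CPM with markers read unthinned and 457 CPM with cycling at 5 UMIs. The positive share was 28.8% at 1000 UMIs, 60.3% at 4000, 61.8% unthinned, 37.9% at 1 marker and 39.8% with unthinned markers. Resting over cycling was 8.31 without doublet removal, 11.7 with another seed, 11.2 with unthinned markers, and 5.80 and 17.2 with cycling at 2 and 5 UMIs. Light contig over none was 1.21 with unthinned markers, 1.37 and 1.96 with cycling at 2 and 5 UMIs, 1.89 for barcodes with a contig and 1.33 with a V gene. No IGH over IGH was 1.96 with an IGH contig of at least 3 UMIs. Aged over young was 0.295 at 1 marker (0.0918 to 0.831). The ratio in the plasmacytoid dendritic gate, 4.60, was 6.22 without doublet removal, 89.9 at 1 marker, 24.7 with unthinned markers and 1.79 with Siglech required. In its cells without Siglech, Igll1 was read in 11.7% (young), 16.2% (aged) and 56.2% (IkB-deficient). Dntt at 6 or more over 0, 2.95, was 3.61 at 4000 UMIs and 2.31 without IGH. Without an expression minimum 3 of the 10 similar profiles were shared. Where not stated, the cause was not tested.

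No paired analysis was possible because each group had 1 library, with no spread between libraries. Wild-type stages rest on 1 to 21 Ebi3 UMIs, which limits each ratio against them.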
